A study of Mus musculus with 6 samples.

Results

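In mouse embryonic stem cells (mESC) treated to delete the *Tet* genes, 25 of 22380 listed genes fell below 50% of their control level in every line. They were chosen on their values. A gene entered when all 3 *Ctrl* lines were at 20 or more normalized counts, which 8841 genes were, and when its highest *Tet iTKO* value was below 50% of its lowest *Ctrl* value. These conditions held for 33 genes, and 8 of them (*Khdc3*, *Aire*, *Rpl39l*, *Rec114*, *Hormad2*, *Klf15*, *Gpx2* and *Traip*) were set aside by name. Genes of the Y chromosome were also to be left out, and 0 met the conditions. The group contrast of the 25 genes was therefore used to pick them, and their values are given as a description with no test. The 33 genes were 0.373% of those with sufficient *Ctrl* values, and the mirrored conditions for a rise above 2 times held for 123 genes, 1.35% of 9135.

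The 6 lines, 3 per group, were mESC lines, each from a blastocyst of its own. Both groups carried 1 copy of a Cre-ERT2 recombinase (*CreERT2* wt/ki) and the *Gt(ROSA)26Sor tm1Ytchn/J* wt/ki allele, an *H2b-Egfp* reporter that recombination switches on. The *Tet iTKO* lines in addition had *Tet1*, *Tet2* and *Tet3* fl/fl alleles, whereas *Ctrl* lines had none of these. All lines, *Ctrl* included, were kept for 2.5 days with 4-OHT (1 µM), the tamoxifen metabolite that activates Cre-ERT2, and were collected 4 days later, at day 6.5, after growth in 2i medium on feeder fibroblasts and a sort for GFP+ CD326+ cells without the fibroblast antigen Thy1.2. The floxed alleles came from C57BL/6NTac stem cells and *Ctrl* lines from matings with C57BL/6J, so that substrain and deletion cannot be told apart. The targeted genes read 696, 682 and 716 normalized counts in *Ctrl* against 787, 895 and 753 (*Tet1*), 249, 170 and 230 against 233, 268 and 211 (*Tet2*) and 28, 13 and 13 against 10, 3 and 3 (*Tet3*). These are counts over whole genes, in which the floxed exons are not separate, so they do not check the deletion. RNA was read as bulk Smart-Seq2 libraries, in which fewer cells that express a gene and less RNA per cell cannot be told apart.

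TET enzymes oxidize 5-methylcytosine, mainly at CpG dinucleotides, as a step toward unmethylated cytosine, and DNMT enzymes add the methyl group. CpG-rich promoters are unmethylated in most cells, whereas promoters of low or intermediate CpG content can gain and lose the mark. Many genes of the germline, such as those of meiosis and of piRNA pathways, are silenced in somatic cells by promoter methylation and are in part transcribed in mESC in 2i medium, where methylation is low.

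The promoters of 5 of the 25 genes are shown because they cover low to high CpG contents among those found here and include a pair of near-identical copies. Each runs from 250 bases before to 50 bases after the RefSeq transcription start on GRCm38.p6, is printed 5′ to 3′ in the direction of transcription and has its CpG dinucleotides in capitals. *Xlr3b* (chrX:73191929-73192228 on the plus strand) and *Xlr3c* (chrX:73265341-73265640 on the minus strand) hold 7 CpG each and were identical at 255 of 280 positions (91.1%) when set against each other with an offset of 20 bases. *Gtsf1* (chr15:103430378-103430677 on the minus strand) holds 13. *Htra1* (chr7:130935953-130936252 on the plus strand) holds 28, the most among the genes with a promoter sequence, and *Phf11d* (chr14:59365441-59365740 on the minus strand) holds 3.
Xlr3b: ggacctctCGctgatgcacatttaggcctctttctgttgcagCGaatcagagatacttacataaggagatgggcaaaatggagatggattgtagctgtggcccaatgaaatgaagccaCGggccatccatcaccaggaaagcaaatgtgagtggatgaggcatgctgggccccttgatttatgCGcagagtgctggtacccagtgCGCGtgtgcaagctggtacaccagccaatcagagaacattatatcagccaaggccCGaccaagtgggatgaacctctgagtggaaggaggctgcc
Xlr3c: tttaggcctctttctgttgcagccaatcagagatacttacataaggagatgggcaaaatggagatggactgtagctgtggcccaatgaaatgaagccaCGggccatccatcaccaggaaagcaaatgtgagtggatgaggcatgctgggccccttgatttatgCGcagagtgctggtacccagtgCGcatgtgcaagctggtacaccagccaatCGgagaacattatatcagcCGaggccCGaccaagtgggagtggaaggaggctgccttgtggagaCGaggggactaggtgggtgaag
Gtsf1: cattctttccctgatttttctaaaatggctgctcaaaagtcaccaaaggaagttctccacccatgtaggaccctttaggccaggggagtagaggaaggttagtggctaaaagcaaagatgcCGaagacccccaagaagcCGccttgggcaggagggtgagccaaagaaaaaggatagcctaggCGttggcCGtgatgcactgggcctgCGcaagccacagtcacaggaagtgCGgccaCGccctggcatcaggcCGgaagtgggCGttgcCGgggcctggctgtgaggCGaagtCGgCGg
Htra1: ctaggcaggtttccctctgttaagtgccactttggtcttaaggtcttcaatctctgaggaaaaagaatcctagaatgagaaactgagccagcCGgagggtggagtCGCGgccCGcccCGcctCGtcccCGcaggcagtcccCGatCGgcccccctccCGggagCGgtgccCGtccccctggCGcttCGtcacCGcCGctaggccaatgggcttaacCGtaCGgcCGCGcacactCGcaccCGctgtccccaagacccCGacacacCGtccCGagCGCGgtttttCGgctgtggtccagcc
Phf11d: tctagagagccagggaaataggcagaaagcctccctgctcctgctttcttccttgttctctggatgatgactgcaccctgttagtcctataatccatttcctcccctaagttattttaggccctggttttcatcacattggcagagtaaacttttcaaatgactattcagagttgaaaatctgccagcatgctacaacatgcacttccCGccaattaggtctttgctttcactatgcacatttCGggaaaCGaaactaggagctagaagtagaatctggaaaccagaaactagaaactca

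The fall was broad in function and concentrated in genes of low level. Of the 25 genes, 24 are annotated as protein coding, and 13 had a *Ctrl* mean under 50 normalized counts, 5 a mean from 50 to under 100 and 7 a mean of 100 or more. Their median *Ctrl* mean was 49 normalized counts against 185 for all genes with sufficient *Ctrl* values. The *Tet iTKO* mean was under 25% of the *Ctrl* mean for 7 genes, from 25% to under 33% for 10 and at 33% or above for 8. The median was 29.0%, against 98.0% for all genes with sufficient *Ctrl* values. That gap was fixed in advance, since the rule held every ratio of the 25 genes under 50%. The lines of a group varied by a median of 9.79% of the mean (coefficient of variation) in *Ctrl* and 20.9% in *Tet iTKO*, and 4 genes had a *Tet iTKO* value at or under 3 normalized counts, where a few counts set the ratio.

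**Figure D1:**
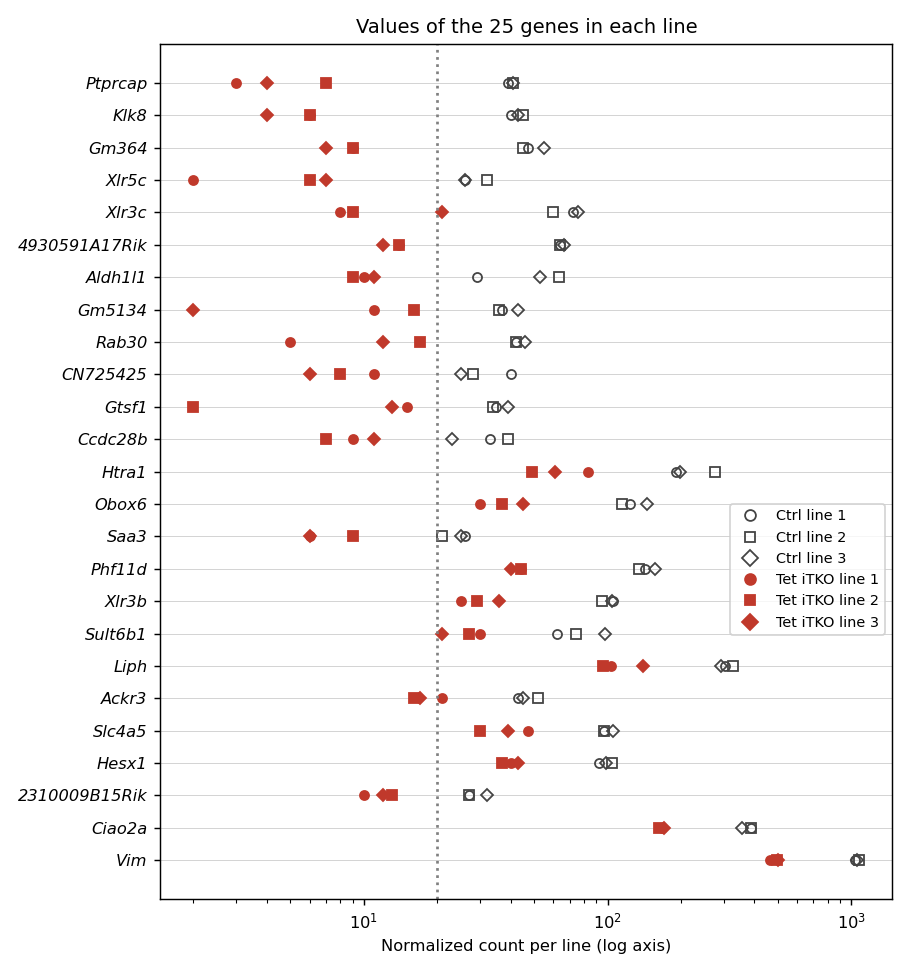
Normalized counts (x axis, log scale) of the 25 genes (rows, from the largest to the smallest fall in group mean) in the 3 *Ctrl* lines (open symbols) and the 3 *Tet iTKO* lines (filled symbols), with a dotted line at the *Ctrl* minimum of 20. The groups are apart for every gene because the rule required it, and values run from 2 for *Xlr5c*, *Gtsf1* and *Gm5134* in a *Tet iTKO* line to 1078 for *Vim* in *Ctrl* line 2.

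The boundary of the rule ran through genes with like values. Just inside it were *2310009B15Rik*, *Sult6b1*, *Slc4a5*, *Vim* and *Ackr3*, whose highest *Tet iTKO* value was 0.481 to 0.488 of the lowest *Ctrl* value. Just outside, at exactly 0.5, were *Gpat2*, *Crtac1*, *BC002059*, *Sox11* and *Mcam*. *Gpat2* read 64, 99 and 64 normalized counts across *Ctrl* lines against 17, 32 and 18 across *Tet iTKO* lines, a lower ratio of means (29.5%) than any of the 5 genes just inside. *Mitf* and *Xlr4a* were also lower in every *Tet iTKO* line but had a *Ctrl* line under 20. After values were corrected for GC content and transcript length, 14 of the 25 genes still met the rule, and *Ackr3*, *Sult6b1*, *Vim* and *2310009B15Rik* were among the 11 that did not.

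**Figure D2:**
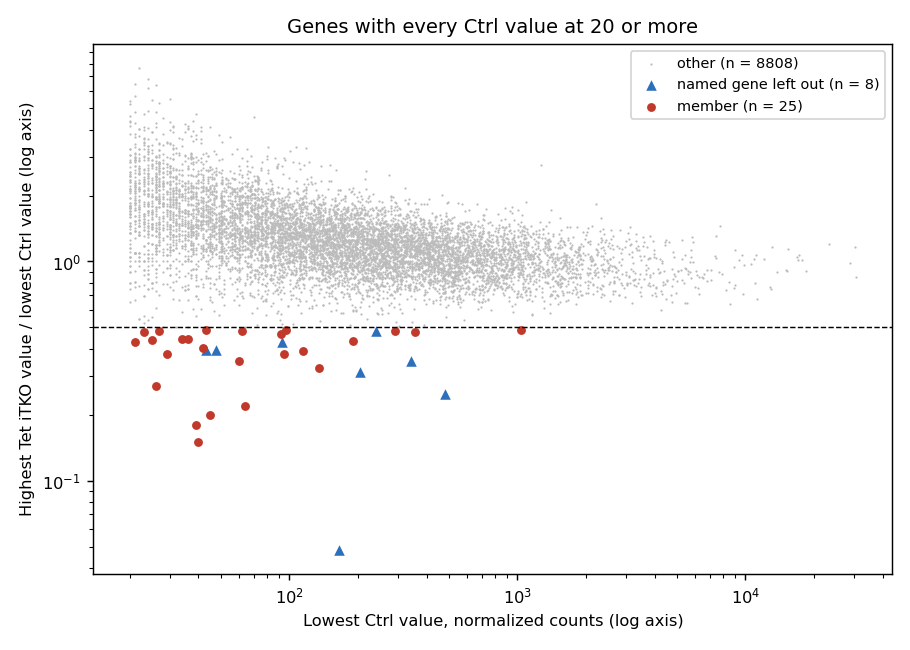
Highest *Tet iTKO* value divided by the lowest *Ctrl* value (y axis, log scale) against the lowest *Ctrl* value in normalized counts (x axis, log scale) for the 8841 genes with every *Ctrl* value at 20 or more. The 25 genes (circles) and the 8 named genes set aside (triangles) lie below the dashed line at 0.5, and *Rpl39l* lies lowest at 0.0482.

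The family with most members was *Xlr*, X-linked lymphocyte-regulated genes whose proteins are related to SYCP3, a component of the synaptonemal complex of meiotic chromosomes. *Xlr3b* (chrX:73192207-73202930, GRCm38) read 105, 95 and 104 normalized counts across the *Ctrl* lines against 25, 29 and 36 across the *Tet iTKO* lines, 29.6% of the *Ctrl* mean. *Xlr3c* (chrX:73254540-73265390) read 72, 60 and 76 against 8, 9 and 21, or 18.3%. *Xlr5c* (chrX:73282896-73292976) read 26, 32 and 26 against 2, 6 and 7, or 17.9%. *Tet iTKO* line 3 was the highest of its group for all 3 genes, and the rule itself required it to be below every *Ctrl* line. The genes lie 17.5 to 80.0 kb apart, and the annotation places all 3 within the span of *Xlr5a*. Since reads that align to several places were discarded, reads common to such copies are missing and the share of each copy is uncertain.

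The other *Xlr* genes were not part of the rule and could be tested. Of 7 relatives, 4 averaged 10 normalized counts or more and all 4 were lower in *Tet iTKO* (limma, Benjamini-Hochberg adjusted p under 0.05), against 18.4% of all 10524 genes tested that were called lower. *Xlr3a* read 275, 260 and 245 normalized counts (*Ctrl*) against 100, 81 and 141 (*Tet iTKO*), or −1.30 ± 0.16 as log2 fold change (SE, limma adjusted p = 2.5e-08). For *Xlr4a*, at 28, 21 and 15 against 3, 4 and 1, the log2 fold change was −2.67 ± 0.66 (limma adjusted p = 0.0016). *Xlr4b* fell by 2.18 ± 0.56 and *Xlr5a* by 1.87 ± 0.49 on the log2 scale (limma adjusted p = 0.0022 and 0.0027). Every *Tet iTKO* value was below every *Ctrl* value for these 4 genes, as for 22.9% of all genes tested, and all 4 also passed the threshold after values were corrected for the GC content and length of transcripts. These genes share sequence and genome neighbourhood with *Xlr3b*, *Xlr3c* and *Xlr5c* and are not independent of them. *Xlr4c* (12, 3 and 18 against 1, 0 and 0), *Xlr5b* (4, 13 and 3 against 0, 0 and 8) and *Xlr* (at most 1 in any line) were too low to test.

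**Figure D3:**
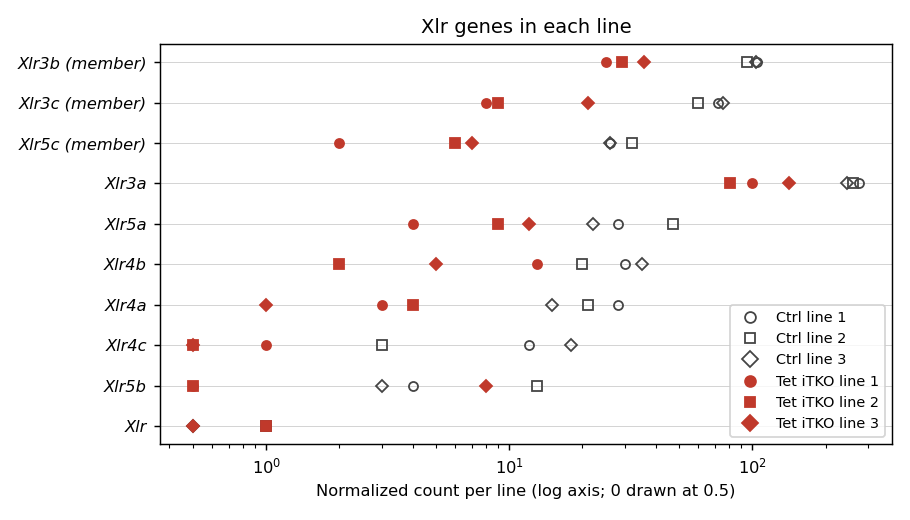
Normalized counts (x axis, log scale, 0 drawn at 0.5) of 10 *Xlr* genes in the 3 *Ctrl* lines (open symbols) and the 3 *Tet iTKO* lines (filled symbols), with the 3 genes chosen by the rule on top. The lines of the groups are apart from *Xlr3b* down to *Xlr4a* (values of 1 to 141 against 15 to 275) and for *Xlr4c*, and they overlap for *Xlr5b* and *Xlr*.

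Further genes with a role in germ cells or early embryos were *Gtsf1*, *Obox6* and *Hesx1*. *Gtsf1* (chr15:103402405-103430470), which encodes a small zinc-finger partner of Piwi proteins in piRNA-guided silencing of transposons, read 35, 34 and 39 normalized counts (*Ctrl*) against 15, 2 and 13 (*Tet iTKO*), 27.8% of the *Ctrl* mean. *Obox6*, an oocyte-specific homeobox gene, read 124, 115 and 145 against 30, 37 and 45, or 29.2%. *Hesx1*, a homeobox repressor of anterior forebrain and pituitary development that is also transcribed in mESC, read 92, 104 and 99 against 40, 37 and 43, or 40.7%. *Gtsf1* was thus spread widely among the *Tet iTKO* lines, with 1 line at 2, whereas *Hesx1* varied little within either group. The relative *Gtsf1l* was also lower (427, 440 and 431 against 241, 283 and 271, log2 fold change −0.71 ± 0.10, limma adjusted p = 6.3e-07), and the change was −0.26 after the GC and length correction. The 5 other *Obox* genes were too low to test.

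Listed germline genes outside those picked by the rule did not move in 1 direction. From a list of 41 genes known for promoter methylation in somatic cells, 37 were neither among the 25 nor set aside. The others, *Gtsf1*, *Hormad2*, *Rec114* and *Rpl39l*, all met the rule, at 27.8%, 24.6%, 26.3% and 3.78% of the *Ctrl* mean. Of the 37, 24 were tested, 8 were lower (33.3%, against 18.4% of all genes) and 2 were higher (against 16.4% of all genes). Their median log2 fold change was −0.01 against 0.01 over all genes tested. After the GC and length correction 6 were lower and 3 higher, against 1426 and 1331 of all 10524 genes. *Dazl*, an RNA-binding regulator of germ cell development, fell from 191, 264 and 240 normalized counts to 113, 52 and 82 (log2 fold change −1.54 ± 0.19, limma adjusted p = 4.3e-08). *Rpl10l*, a testis ribosomal protein gene, read 318, 360 and 270 against 157, 152 and 115 (log2 fold change −1.16 ± 0.14, limma adjusted p = 1.5e-08). The meiotic cohesin gene *Stag3* and the meiotic chromosome axis gene *Hormad1* fell by 0.84 and 0.80 on the log2 scale (limma adjusted p = 0.0015 and 6.2e-05). *Tuba3a*, *Dnmt3l*, *Zfp42* and *Tex19.1* fell by 0.56, 0.49, 0.35 and 0.24, but *Zfp42* and *Tex19.1* were at −0.11 and −0.10 after the GC and length correction and did not pass. The 2 that rose were *Syce2* and *Mov10l1*, which passed in 10 and 8 of 16 alternative settings. The piRNA factors *Mael* and *Piwil2* did not pass the threshold.

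**Figure D4:**
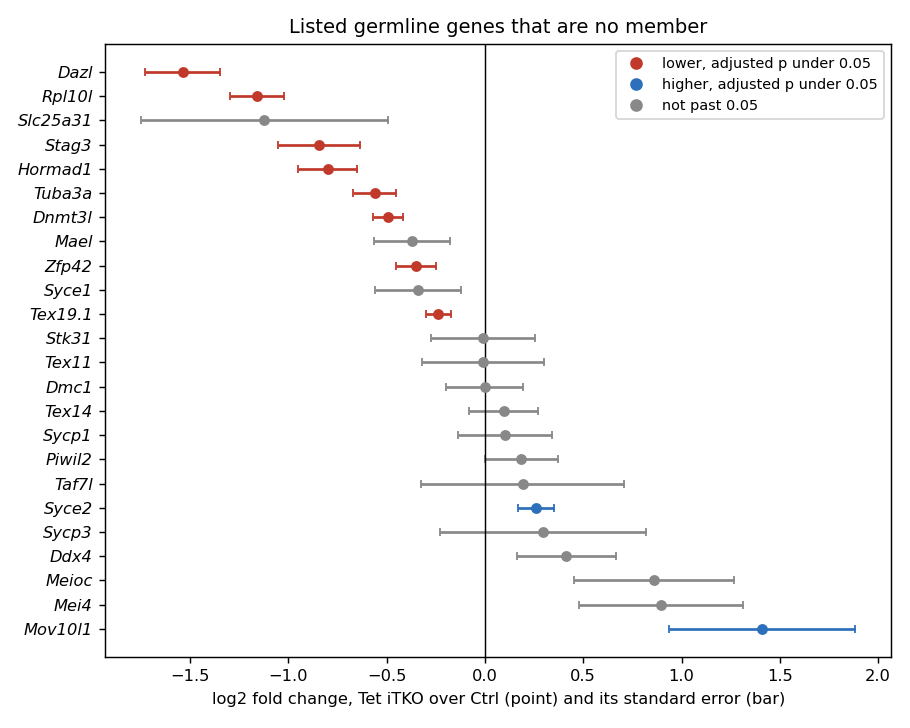
Log2 fold change of *Tet iTKO* over *Ctrl* (x axis, points) with its standard error (bars) for the 24 tested genes of the germline list that are not among the 25, on log2(normalized count + 1). The 8 that were lower run from −1.54 (*Dazl*) to −0.24 (*Tex19.1*), the 2 that were higher lie at 0.26 (*Syce2*) and 1.41 (*Mov10l1*), and 14 did not pass the adjusted p of 0.05.

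Genes known from cells of the immune system formed another group, *Ptprcap*, *Saa3*, *Phf11d* and *Ackr3*. *Ptprcap* (chr19:4153604-4156751), whose product associates with the leukocyte phosphatase CD45, had the largest fall of all 25, from 39, 41 and 41 normalized counts to 3, 7 and 4, or 11.6%. *Phf11d*, a PHD-finger gene, read 143, 135 and 157 against 44, 44 and 40, or 29.4%. *Saa3*, an acute-phase serum amyloid, read 26, 21 and 25 against 6, 9 and 6, or 29.2%. All 3 *Tet iTKO* lines of *Phf11d* were between 40 and 44, though *Ciao2a* and *Vim* had a smaller relative spread in *Tet iTKO*. *Ackr3*, an atypical receptor that binds and removes the chemokine CXCL12, read 43, 52 and 45 against 21, 16 and 17, or 38.6%.

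The relatives of these genes gave mixed results. Among 21 relatives of *Phf11d* by name, which share the PHD finger and no common role, 15 were tested. Of these, 1 was lower and 3 were higher, against 18.4% and 16.4% of all genes. *Phf6* was lower by 0.42 ± 0.16 on the log2 scale (limma adjusted p = 0.035), and *Phf12*, *Phf13* and *Phf19* were higher by 0.34, 0.63 and 1.24. After the GC and length correction only *Phf13* of these 4 kept its call, with *Phf12* at 0.13 and the calls of *Phf6* and *Phf19* lost, and *Phf23* was called lower. The 3 relatives each of *Saa3* and *Ackr3* were too low to test. *Ptprcap* shares 432 bases with *Coro1b* on the same strand and lies opposite *Rps6kb2*. Neither of these followed it, with *Coro1b* at 1225, 1179 and 1189 against 1185, 1162 and 1269 and *Rps6kb2* at 130, 135 and 127 against 137, 124 and 176.

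Another group acts outside the cell or at its surface. *Klk8* (chr7:43797577-43803826), the secreted serine protease neuropsin of the kallikrein family, read 40, 45 and 43 normalized counts against 6, 6 and 4, or 12.5%. *Htra1* (chr7:130936111-130985660), a secreted serine protease of the extracellular matrix, read 191, 277 and 198 against 83, 49 and 61, or 29.0%. *Liph*, a lipase that releases lysophosphatidic acid, read 304, 326 and 291 against 103, 96 and 140, or 36.8%. *Klk8* kept a small absolute level in all 3 *Tet iTKO* lines, and *Htra1* and *Liph* were among the genes of highest *Ctrl* level here. *Slc4a5*, a sodium bicarbonate cotransporter, read 97, 97 and 105 against 47, 30 and 39, or 38.8%.

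Of 26 other kallikrein genes, only *Klk10*, 12.2 kb from *Klk8*, had a mean of at least 10. It read 44, 20 and 27 against 8, 16 and 12, or −1.25 ± 0.45 as log2 fold change (limma adjusted p = 0.027), and passed in 8 of 16 alternative settings. *Htra2*, a mitochondrial protease, read 210, 167 and 187 against 157, 177 and 196 and did not pass. In a list of 15 genes for proteases of these kinds and their inhibitors, *Htra1* included, 8 others were tested, 2 were lower and 2 higher (25% each, against 18.4% and 16.4% of all genes), with a median log2 fold change of −0.07. The collagen chaperone *Serpinh1* and the protease inhibitor *Spint1* fell by 0.20 and 0.28 on the log2 scale, and the membrane-bound proteases *Prss8* and *St14* rose by 0.92 and 0.52.

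Genes of metabolism were *Aldh1l1*, *Sult6b1* and *Ciao2a*. *Aldh1l1* (chr6:90486427-90600203), which oxidizes 10-formyltetrahydrofolate in the folate pathway, read 29, 63 and 53 normalized counts against 10, 9 and 11, or 20.7%. *Sult6b1*, a sulfotransferase, read 62, 74 and 98 against 30, 27 and 21, or 33.3%. *Ciao2a*, which takes part in the assembly of cytosolic iron-sulfur proteins, read 389, 388 and 356 against 168, 162 and 170, or 44.1%. *Aldh1l1* and *Sult6b1* were uneven among *Ctrl* lines, whereas *Ciao2a* was even in both groups. *Aldh1l1* lies 11.2 kb from *Klf15*, a gene set aside by name, which read 106, 93 and 96 against 13, 30 and 40.

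Relatives by name of these metabolic genes moved in either direction. Of 20 other *Aldh* genes, 12 were tested, 0 were lower by limma and 4 were higher, against 18.4% and 16.4% of all genes. At an unadjusted p under 0.05 in limma 1 was lower, and after the GC and length correction 2 were. The 4 higher were *Aldh1a2* and *Aldh3b1* with low *Ctrl* levels (log2 fold change 2.28 and 2.57), *Aldh5a1* (1.57) and *Aldh18a1* (0.45). *Sult4a1* was lower by 0.46 ± 0.11 on the log2 scale (limma adjusted p = 9.7e-04) and *Sult2b1* was higher by 2.37. *Ciao2b*, the close relative of *Ciao2a*, read 211, 292 and 308 against 182, 216 and 234, or −0.35 ± 0.13 as log2 fold change (limma adjusted p = 0.039), which was −0.06 after the GC and length correction, and it passed in 7 of 16 alternative settings. Over all families, 38 of 111 relatives were tested. Of these, 9 were lower (23.7%, against 18.4%) and 8 higher (against 16.4%), and 4 of the 9 were *Xlr* genes. After the GC and length correction 9 were again lower and 6 higher, against 1426 and 1331 of all 10524 genes. Among the lower, *Klk10*, *Ciao2b* and *Phf6* were replaced by *Aldh16a1*, *Aldh4a1* and *Phf23*.

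The remaining genes of known function act inside the cell. *Vim* (chr2:13573927-13582826), the intermediate filament protein vimentin of mesenchymal and many cultured cells, had the highest level of the 25 and read 1038, 1078 and 1057 normalized counts against 463, 496 and 503, or 46.1%. *Rab30*, a small GTPase of the Golgi, read 42, 42 and 46 against 5, 17 and 12, or 26.2%. *Ccdc28b*, a coiled-coil gene tied to cilia, read 33, 39 and 23 against 9, 7 and 11, or 28.4%. *Vim* had the smallest fall and the smallest relative spread in *Ctrl* of these 3, whereas *Rab30* ran from 5 to 17 among the *Tet iTKO* lines. *Vim* is also abundant in fibroblasts. The 18 feeder fibroblast markers summed to 380 to 399 normalized counts in *Ctrl* and 631 to 658 in *Tet iTKO*, with 0 of 7 tested lower by limma (also 0 at an unadjusted p under 0.05) and the 3 collagen genes *Col1a1*, *Col1a2* and *Col3a1* higher. The fibroblast markers *Thy1*, *Acta2* and *Lox* had log2 fold changes of −0.19, −0.11 and −0.29 and did not pass. *Tagln* was at 0.90 and did not pass (limma adjusted p = 0.056), but did at 1.08 after the GC and length correction. The part of fibroblast RNA in the value of *Vim* was not tested. *Ccdc28b* lies opposite the more abundant *Tmem234* (683, 633 and 660 against 542, 570 and 614), and without strand in the library their shared reads cannot be told apart.

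The last 5 are named by number or locus only. *Gm364*, X-linked, read 47, 45 and 55 normalized counts against 9, 9 and 7, or 17.0%. *4930591A17Rik*, a long intergenic non-coding RNA by annotation, read 64, 64 and 66 against 14, 14 and 12, or 20.6%. *Gm5134* read 37, 36 and 43 against 11, 16 and 2, or 25%. The first 2 of these were even within both groups, and *Gm5134* had 1 *Tet iTKO* line at 2. *CN725425* read 40, 28 and 25 against 11, 8 and 6, or 26.9%, and *2310009B15Rik* read 27, 27 and 32 against 10, 13 and 12, or 40.7%.

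Promoter sequence was not used by the rule, and the promoters found held few CpG. A RefSeq promoter of 300 bases was found for 20 of the 25 genes, not for *Ccdc28b*, *Rab30*, *Gm5134*, *Obox6* and *Ptprcap*. The 20 had a median of 7.5 CpG (range 1 to 28), against a median of 22 (interquartile range 15.8 to 29) for 7160 genes with sufficient *Ctrl* values. At least 10 CpG were present in 8 of the 20 (40%), in 89.6% of the 7160 and in 43.5% of all 32851 RefSeq promoters. The 8 were *Htra1*, *Klk8*, *2310009B15Rik*, *CN725425*, *Gtsf1*, *Ciao2a*, *Vim* and *Gm364*. The median stayed low among genes with a *Ctrl* mean under 100 (7.5 for 14 genes against 21 for 2200) and of 100 or more (9 for 6 genes against 23 for 4960). Where the RefSeq start lay within 100 bases of the start in the gene annotation, the medians were 9 (14 genes) and 22 (5491 genes). *Xlr5c* had 1 CpG, but its RefSeq start lay 2461 bases from the annotated one. The largest such distance among the 20 genes was 64366 bases. No methylation was measured in these libraries.

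**Figure D5:**
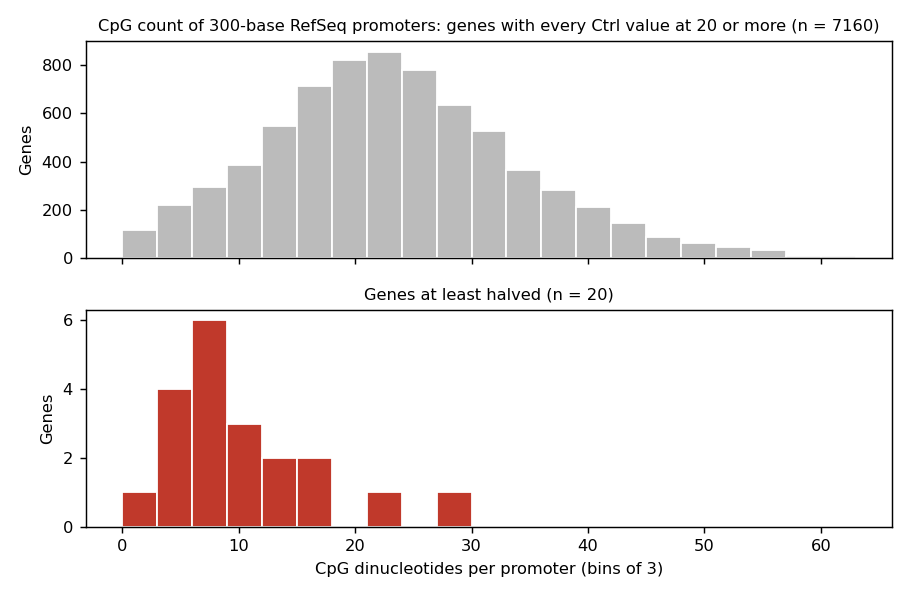
Number of genes (y axis) by CpG dinucleotides per 300-base RefSeq promoter (x axis, bins of 3) for 7160 genes with every *Ctrl* value at 20 or more (upper panel, median 22) and for 20 of the 25 genes (lower panel, median 7.5). The 20 genes with a promoter sequence sit mostly on the left of the wide distribution, and *Klk8* (23) and *Htra1* (28) are the 2 above its median.

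Other sequence features differed less. Promoter GC content had a median of 52.5% for the 20 promoters, 61.3% for the 7160. The longest transcript had a median length of 2041 bases for the 25 genes against 3307 for 8798 genes, and 1849 against 3715 where the *Ctrl* mean was under 100. Its GC content had a median of 47.4% against 49.8%. Of 2 motifs in which methylation of the CpG is known to affect binding, searched on both strands, the E-box CACGTG was found in 1 of the 20 promoters (*Gm364*), in 11.3% of the 7160 and in 7.15% of all RefSeq promoters. The cAMP response element TGACGTCA was found in 0 of the 20, in 3.76% of the 7160 and in 1.79% of all RefSeq promoters.

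By position, 4 of the 25 genes were on the X chromosome (16%, against 3.00% of the 8798 annotated genes with sufficient *Ctrl* values) and 5 were on chromosome 7 (20%, against 7.97%). The X-linked genes were *Gm364* and the 3 *Xlr* genes, which form 1 locus, so the 4 genes stand for 2 places. Genes of the X chromosome as a whole had a median *Tet iTKO* level of 90.9% of *Ctrl*, and those of chromosome 7 one of 100.2%. *Klk8*, *Htra1*, *Obox6*, *Saa3* and *Rab30* lie apart on chromosome 7, over 500 kb from each other. The comparison of tested genes next to the 25 on either side was added after their values were seen. Among them, 11 of 48 were lower (22.9%, against 18.4% of all genes) and 3 were higher (against 16.4%). The 11 include *Xlr3a*, *Xlr5a* and *Klk10*, which were already counted as lower among the relatives. Some of the neighbours are distant, up to 1979 kb for *Gxylt1* beside *CN725425*. *Snx1*, whose gene lies 0.024 kb from that of *Ciao2a*, read 265, 270 and 248 against 174, 159 and 153 (log2 fold change −0.69 ± 0.13, limma adjusted p = 4.0e-05). *Trdmt1*, next to *Vim*, fell by 0.89 ± 0.31 on the log2 scale (limma adjusted p = 0.024, but 0.051 to 0.108 without any 1 of 5 lines). *Fgfr2*, opposite *Htra1*, read 15, 15 and 11 against 2, 8 and 9.

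Normalized counts summed to 3964824 to 4219665 per library. Markers of mESC had summed values of 25406 to 25918 in *Ctrl* and 21843 to 22791 in *Tet iTKO*. Their levels were unequal, with *Dppa5a* and *Pou5f1* highest and *Fut4* at most 2 in any line. Of 13 tested, 5 were lower (38.5%) and 4 higher. Over all genes tested 18.4% were lower and 16.4% higher, and these shares apply beside each marker list here. *Dppa5a* accounted for most of the fall in the sum, and its log2 fold change of −0.39 was 0.11 after the GC and length correction. That correction left 3 markers lower and 3 higher, against 1426 and 1331 of all 10524 genes. Of the 2-cell-like markers, 8 of 13 were found, with sums of 13 to 25 against 201 to 224. The 5 tested (*Zscan4c*, *Zscan4d*, *Zscan4f*, *Usp17lc* and *Usp17le*) were all higher, and *Zfp352*, *Gm4340* and *Tdpoz3* were at most 4 in any line. Primitive endoderm markers had 1 of 7 lower (*Sparc*) and 4 higher (sums of 2023 to 2087 against 1646 to 1713). Trophoblast markers had 1 of 4 lower and 1 higher (822 to 904 against 772 to 822). Y-linked genes summed to 766 to 785 against 449 to 468, with 3 of 6 lower. The part of these shifts in the values of the 25 genes was not tested.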

How the data were processed

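The authors prepared poly(A) Smart-Seq2 libraries from sorted mESC, sequenced paired reads of 50 bases, aligned them with STAR (unique alignments only) and counted them per gene with HTSeq 0.7.1. The authors then normalized with DESeq2 1.26.0 in R 3.5.2. The submitters' processing notes name build mm9, and the annotation is not given in the sources used here. The unit of the deposited values is a score, the authors' size-factor-normalized counts after rounding to whole numbers. They cannot be read as counts, and the reads behind a value are not known. Smart-Seq2 keeps no strand although the counting was set to a stranded mode, so overlapping genes are uncertain.

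Symbols, coordinates, lengths and GC content came from GENCODE M21 (GRCm38) by gene identifier, for 20775 of 22380 identifiers, with 1605 lacking a symbol, and promoters came from RefSeq (GRCm38.p6) by symbol. Other columns of per-sample values numbered 0.

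The 25 genes (members) and the gene lists were chosen with earlier results of these data known. Genes that are not members were tested between groups by limma 3.58.1 (lmFit, eBayes with trend; R 4.3.3) on log2(normalized count + 1). This covered 10524 genes averaging 10 or more, and p-values were adjusted over all of them by Benjamini-Hochberg. A fold change on this scale understates the change of low genes. Relatives share a symbol root of at least 3 letters with a member, for roots of at most 40 genes, and are named where called. Values per line were to be given for the 12 members of largest fall, the 12 of highest Ctrl mean, those sharing a root, within 500 kb of each other or of a gene set aside, or in a list, and for the 5 genes on each side of the threshold. The text gives them for all 25. The comparison of neighbouring genes, the split of features by level and the symmetric loess (span 0.3) of the GC and length correction were chosen after seeing the data. The test was checked on simulated data. Python 3.11.15, pandas 2.3.3, NumPy 2.4.6 and matplotlib 3.10.9 were used for tables and plots.

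The lines are separate derivations, and the paper describes the RNA-seq data as coming from 3 independent experiments. Which line belongs to which experiment is not given, so p-values measure the spread between these 3 and 3 lines. Squared differences between lines of a group were 2.65 to 3.62 times the counting noise that the normalized values would have if they were counts. Alternatives were other pseudocounts, filters, scalings and thresholds, a replicate block and leaving out each line.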

Additional observations from a re-analysis of the deposited data

How the results depend on the processing

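The number of genes that met the rule moved with its terms. With a Ctrl minimum of 50 it was 12, with group means in place of single lines 135, with a limit of 1/3 of the lowest Ctrl value 6, and after quantile normalization 41. Leaving out 1 line gave 33 to 44 genes (40 without Ctrl line 3, 40 without Tet iTKO line 2 and 44 without Tet iTKO line 3), and a Ctrl minimum of 10 gave 32. These settings and the group means can only widen the rule, so that the 25 are in them by construction. Trimmed means of M values gave 30 genes, the 25 included. The GC content and length correction gave 22 genes and kept 14 of the 25. It lost *2310009B15Rik*, *Ackr3*, *Ccdc28b*, *Ciao2a*, *CN725425*, *Gtsf1*, *Hesx1*, *Obox6*, *Saa3*, *Sult6b1* and *Vim*, and quantile normalization lost *Vim*. The median log2 ratio of the 25, −1.79, was −2.13 after quantile normalization, −1.61 after the GC and length correction and −1.85 to −1.75 without 1 line. Of 225 ratios of single genes under these settings, 203 moved by less than the spread between lines, and a change of sign was barred by the rule when a line was left out.

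Of all genes tested, 1934 were lower and 1731 higher. Without the trend in eBayes these were 1217 and 1075, and without 1 line 1641 to 1728 and 1321 to 1655. After the GC and length correction they were 1426 and 1331. Among relatives, 9 were lower and 8 higher, which became 5 and 3 with a mean of at least 50 (a filter that removes low relatives), 5 and 4 without the trend, and 6 to 9 and 6 to 7 without 1 line. The cause of these moves was not tested beyond the filter's own effect. Single relatives lost their call without *Ctrl* line 3 (*Phf12*, adjusted p = 0.0855 in limma), without *Ctrl* line 3 or *Tet iTKO* line 3 (*Aldh5a1*, 0.12 and 0.0738), without *Ctrl* line 1 or *Tet iTKO* line 1 or 3 (*Klk10*, 0.0506 to 0.169), without *Ctrl* line 1 or 3 or *Tet iTKO* line 2 (*Phf6*, 0.103 to 0.256), and without any of 4 lines (*Ciao2b*, 0.0596 to 0.208) or 5 lines (*Phf19*, 0.0742 to 0.108). In the germline and protease lists, calls were lost for *Zfp42* (0.106 without *Tet iTKO* line 2), *Syce2* (0.0516 to 0.2), *Mov10l1* (0.0533 to 0.239), *Prss8* (0.0554 to 0.165, without *Ctrl* line 1 or *Tet iTKO* line 2) and *Serpinh1* (0.0675 to 0.0815, without *Ctrl* line 2 or *Tet iTKO* line 2). *Xlr4a* fell under the mean of 10 without *Ctrl* line 1 and was then not tested.

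Replicate numbers did not pair the lines. Deviations of same-numbered lines correlated at 0.000706, −0.00543 and −0.00314, and 0 of 3 numbers correlated best with their own. A fit with the replicate number as a block gave 1980 lower and 1762 higher genes, and 9 and 8 relatives.

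Depth limits the members with a Ctrl mean under 50, for which a few normalized counts decide the ratio, and the reads behind a value are not known.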

Other observations

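Other listed genes that bear on DNA methylation gave these values. Of 10 genes of the methylation machinery, all tested with limma as above, 3 were lower and 5 higher. The threshold was a Benjamini-Hochberg adjusted p under 0.05, which 18.4% (lower) and 16.4% (higher) of all genes passed. The list includes the targeted *Tet* genes, of which *Tet3* was called lower and *Tet1* higher. Their counts cover whole genes, floxed exons included. *Tet3* was also low, at 28, 13 and 13 normalized counts in *Ctrl* against 10, 3 and 3 in *Tet iTKO*. After the GC and length correction 3 of the 10 were lower and 1 higher, against 1426 and 1331 of all 10524 genes. *Dnmt3l*, the cofactor of the de novo methyltransferases, was at a log2 fold change of −0.49, *Uhrf1*, which recruits the maintenance methyltransferase, at −0.15, and *Tet3* at −1.67. The methyltransferases *Dnmt1*, *Dnmt3a* and *Dnmt3b* were higher by 0.21, 0.25 and 0.24, but were at −0.07, −0.06 and 0.08 after the correction and did not pass. Of 19 imprinted genes tested, 3 were lower (15.8%, against 18.4% of all genes) and 6 higher (against 16.4%). The lower ones were *Mest*, *Slc38a4* and *Mcts2*. Among the higher were the growth factor *Igf2* at a log2 fold change of 0.92 and *Grb10*, a growth inhibitor, at 0.88. After the correction *Mest*, *Slc38a4* and *Mcts2* did not pass, *Peg3* was called lower (−0.38), and 3 were higher. Of 5 Gag-derived genes tested, *Pnma2* and *Pnma5* were at −0.54 and −1.08 and *Peg10* and *Ldoc1* at 1.23 and 1.72. Of the genes named, *Uhrf1*, *Dnmt1*, *Dppa3*, *Tet1*, *Tet3*, *Slc38a4*, *Mcts2*, *Pnma2* and *Ldoc1* did not pass without at least 1 of the 6 lines.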
